A study of Homo sapiens with 56 samples.

Results

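The BCL2 family decides whether a cell's mitochondria release the factors that start apoptosis, and 10 of its genes were followed here in estrogen receptor-positive ovarian cancer cells: the survival genes BCL2, BCL2L1, MCL1 and BCL2A1, the pore-forming effectors BAX and BAK1, and the BH3-only genes BCL2L11, PMAIP1, BIK and BID. The members were chosen by symbol, with earlier results of these data known. Each probe set that the array's annotation assigns to 1 of these symbols was taken, which gave 23 probe sets of the 22215 tested (0.104%) and 10 of the 11963 named genes. BCL2A1, BAK1 and BIK had 1 probe set each, BCL2L11, PMAIP1, BAX and BID 2 each, BCL2L1 3, BCL2 4 and MCL1 5.

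RNA came from PEO1 and PEO4, established lines of high-grade serous ovarian cancer, and was measured on 56 arrays in 14 groups of 4. All groups were first deprived of steroid hormone for 3 days in medium without phenol red and with charcoal-stripped serum. Within each line, cells then received for 3 h 1 µM 4-hydroxytamoxifen with 1 nM estradiol (4OHT+E2), 1 µM 4-hydroxytamoxifen alone (4OHT), 1 µM ICI with 1 nM estradiol (ICI+E2), 1 µM ICI alone, 1 nM estradiol alone (E2) or the ethanol vehicle, and a further group was labelled 0 h. 4-hydroxytamoxifen is an active tamoxifen metabolite that acts as a selective modulator of the estrogen receptor, whereas ICI (fulvestrant) is a steroidal full antagonist that leads to the receptor's degradation. The labels do not say whether the 4 arrays of a group came from separate cultures, so p-values measure the spread between these arrays, which may be technical.

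In healthy and malignant cells alike, the survival proteins bind and hold back BAX and BAK1, and the BH3-only proteins displace them or activate BAX and BAK1 directly. Each BH3-only protein has its own preferred partners: NOXA, encoded by PMAIP1, binds MCL1 and BCL2A1, while BIM, encoded by BCL2L11, binds all the survival proteins. In serous ovarian cancer BCL2L1 and MCL1 are well-known survival factors, and BCL2A1 is best known as an NF-kB target of blood and immune cells.

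The sequences in front of 3 members are shown: BCL2A1 for its 4OHT response, BCL2L11 for its E2 response in PEO1 and BAX for its small decrease with 4OHT in PEO1. That BAX call was lost whichever array was left out, and PEO4 showed no decrease. PMAIP1, which rose with 4OHT in PEO1, is not printed, and its window matched none of the 6 motifs searched. The sequences are the 250 bases before the annotated transcript start, from RefSeq on build GRCh38.p14. They lie on the minus strand at chr15:79971197-79971446 for BCL2A1 and on the plus strand at chr2:111120664-111120913 for BCL2L11 and chr19:48954625-48954874 for BAX. Capitals mark matches to 1 of the 6 motifs searched on both strands.
BCL2A1 promoter: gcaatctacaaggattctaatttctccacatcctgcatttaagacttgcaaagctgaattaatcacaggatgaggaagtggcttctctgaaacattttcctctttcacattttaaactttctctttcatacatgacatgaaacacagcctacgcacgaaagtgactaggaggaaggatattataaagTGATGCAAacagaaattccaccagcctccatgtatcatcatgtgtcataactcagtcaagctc
BCL2L11 promoter: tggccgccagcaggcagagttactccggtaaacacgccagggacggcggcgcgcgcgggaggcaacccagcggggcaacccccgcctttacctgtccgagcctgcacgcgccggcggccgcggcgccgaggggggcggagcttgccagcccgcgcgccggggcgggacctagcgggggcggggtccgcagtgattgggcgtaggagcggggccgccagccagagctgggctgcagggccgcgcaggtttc
BAX promoter: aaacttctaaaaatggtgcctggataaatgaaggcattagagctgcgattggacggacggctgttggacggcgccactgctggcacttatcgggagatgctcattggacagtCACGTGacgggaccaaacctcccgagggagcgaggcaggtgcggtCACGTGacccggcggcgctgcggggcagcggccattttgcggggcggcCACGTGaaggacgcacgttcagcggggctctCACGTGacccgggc
The motifs were NF-kB and the estrogen response element (ERE) by name, AP-1 (TGANTCA), the cAMP response element (TGACGTCA), the E-box CACGTG and the ATF4/CHOP composite TGATGNAA. BCL2A1 held 1 match, to TGATGNAA, 63 bases before the start, and 3.14% of 35116 RefSeq promoter windows of the same length hold that motif. BAX held 4 matches to CACGTG, at 138, 93, 45 and 14 bases before the start. One or more such matches occurred in 6.34% of the windows, and 4 or more in 5 windows (0.0142%). The cut of 4 was taken from the BAX window, which is itself 1 of these 5, so this share is only descriptive. The BCL2L11 window matched none of the 6 motifs, including the ERE, which 0.0399% of the windows hold, NF-kB (9.96%), AP-1 (6.57%) and the cAMP response element (1.65%). Among the other members, 1 E-box match stood in 2 of the 5 BID windows, whereas the windows of BCL2, BCL2L1, BAK1 and PMAIP1 matched none. MCL1 and BIK had no window in this table. A match is a description of letters and not a sign of binding.

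All values below are log2 RMA expression values (RMA is a method that summarises the probes of a probe set), given per array or as mean ± SD with n = 4. Differences are log2 differences ± SE from limma fitted over the 28 arrays of a line, and a probe set was called when its Benjamini-Hochberg adjusted p over all 22215 probe sets was under 0.05. The median over an array's probe sets was between 7.4 and 7.9, higher on each PEO4 array than on each PEO1 array. The lines appear to have been normalized apart, so levels were not compared across them. RMA values carry no detection call, and values of different probe sets are not compared with each other. Cell type markers are given as ranges of group means. The 9 epithelial markers ran from 10.03 (MUC16) to 13.84 (KRT18) in PEO1 and from 10.26 (MUC16) to 13.68 (KRT18) in PEO4. The 7 leukocyte markers measured ran from 3.11 (PTPRC) to 7.07 (CD3E) and from 4.11 (PTPRC) to 7.47 (CD3E), and the 6 stromal markers from 2.44 (LUM) to 11.74 (THY1) and from 6.04 (LUM) to 11.02 (THY1). Without detection calls these levels do not show that a marker is absent. The ACTB 3′ minus 5′ probe set difference, which grows as RNA degrades, was between -0.25 and 0.14 on all PEO1 arrays. In PEO4 it reached 3.41 on ICI replicate 1, 2.28 on 0 h replicate 4 and 1.74 on 4OHT+E2 replicate 4.

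BCL2A1 (probe set 205681_at; gene at chromosome 15, 79960892 to 79971196, GRCh38.p14), which encodes the survival protein BFL-1, was the member with the largest change, and 4OHT raised it in both lines with and without E2. In PEO1 it stood at 7.80, 8.22, 7.64 and 7.59 with 4OHT, against 6.47, 6.28, 6.39 and 6.21 with vehicle. With 4OHT+E2 it stood at 8.39, 8.32, 8.07 and 7.89, against 6.18, 6.63, 6.53 and 6.34 with E2. Every 4OHT array lay above every array without 4OHT. BCL2A1 rose by 1.47 ± 0.14 with 4OHT over vehicle (2.78-fold, adjusted p = 4.9e-07), by 1.75 ± 0.14 with 4OHT+E2 over E2 (3.35-fold, adjusted p = 3.04e-09) and by 1.83 ± 0.14 with 4OHT+E2 over vehicle (3.55-fold, adjusted p = 1.51e-08). These comparisons share arrays with each other.

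In PEO4 BCL2A1 stood at 7.27, 6.77, 6.83 and 6.66 with 4OHT, against 6.08, 5.55, 5.82 and 6.04 with vehicle. With 4OHT+E2 the values were 7.72, 7.77, 7.78 and 7.41, against 6.19, 6.64, 6.04 and 6.06 with E2. Here too each array with 4OHT lay above each array without it, although the lowest 4OHT array (6.66) came close to the highest E2 array (6.64). BCL2A1 rose by 1.01 ± 0.14 with 4OHT over vehicle (2.01-fold, adjusted p = 6.28e-05), by 1.44 ± 0.14 with 4OHT+E2 over E2 (2.72-fold, adjusted p = 7.73e-08) and by 1.80 ± 0.14 with 4OHT+E2 over vehicle (3.48-fold, adjusted p = 2.48e-09). The ACTB 3′ minus 5′ difference was 0.47 to 0.65 on the 4OHT arrays, against 0.24 to 0.57 on the vehicle arrays, and its part in the result was not tested. In PEO4, but not in PEO1, this probe set lay among the dimmest 40 percent.

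**Figure D1:**
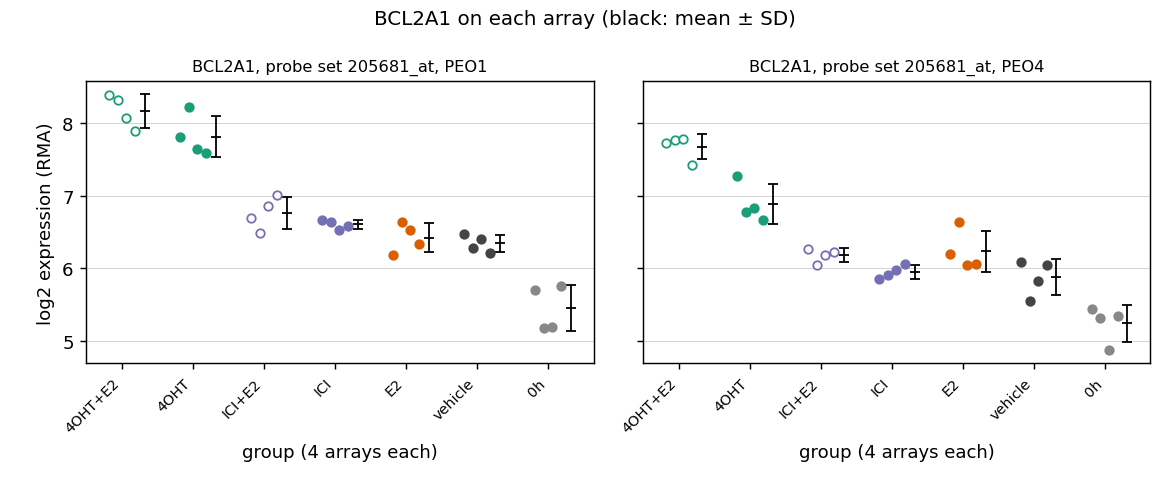
BCL2A1 on each array. The y axis is the log2 RMA value of probe set 205681_at, the x axis the 7 groups of each line, points are arrays and black bars the mean ± SD (n = 4). Arrays with 4OHT+E2 or 4OHT lie highest in both lines, with means of 8.17 and 7.81 in PEO1 and of 7.67 and 6.88 in PEO4, and the 0 h arrays lowest, with means of 5.45 and 5.23.

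The order of BCL2A1 levels had few clear steps. In PEO1 the group means were 8.17 ± 0.23 with 4OHT+E2, 7.81 ± 0.29 with 4OHT, 6.76 ± 0.22 with ICI+E2, 6.60 ± 0.06 with ICI, 6.42 ± 0.20 with E2, 6.34 ± 0.11 with vehicle and 5.45 ± 0.32 at 0 h (SD, n = 4). Neighbouring groups in this order overlapped except at the step between 4OHT and ICI+E2 and at that between vehicle and 0 h. In PEO4 the means were 7.67 ± 0.17 with 4OHT+E2, 6.88 ± 0.27 with 4OHT, 6.23 ± 0.28 with E2, 6.17 ± 0.10 with ICI+E2, 5.94 ± 0.09 with ICI, 5.87 ± 0.24 with vehicle and 5.23 ± 0.25 at 0 h (SD, n = 4). Steps without overlap stood between 4OHT+E2 and 4OHT, between 4OHT and E2, and between vehicle and 0 h.

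BCL2A1 also rose during the 3 h with vehicle. It stood at 6.47, 6.28, 6.39 and 6.21 with vehicle in PEO1, against 5.70, 5.17, 5.19 and 5.75 at 0 h, a difference of 0.89 ± 0.14 (1.85-fold, adjusted p = 0.000316). In PEO4 the vehicle arrays lay at 5.55 to 6.08 and the 0 h arrays at 4.86 to 5.43, a difference of 0.64 ± 0.14 (1.56-fold, adjusted p = 0.00585). The ACTB 3′ minus 5′ difference reached 2.28 on 1 of the PEO4 0 h arrays, and the call also passed with that array and ICI replicate 1 left out together.

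Neither E2 nor ICI alone moved BCL2A1 past the threshold. The E2 minus vehicle difference was 0.08 ± 0.14 in PEO1 (95% interval -0.22 to 0.38, adjusted p = 0.922) and 0.36 ± 0.14 in PEO4 (0.07 to 0.65, adjusted p = 0.383). For ICI minus vehicle it was 0.26 ± 0.14 in PEO1 (-0.03 to 0.56, adjusted p = 1) and 0.07 ± 0.14 in PEO4 (-0.22 to 0.36, adjusted p = 0.814). Added to 4OHT, E2 gave a further 0.79 ± 0.14 in PEO4 (adjusted p = 0.0265) and 0.35 ± 0.14 in PEO1 (adjusted p = 0.586). The PEO4 call was lost without 4OHT replicate 2, 3 or 4 or 4OHT+E2 replicate 2 or 3, and with only the compared groups fitted. Over all these settings the adjusted p reached 0.446. The E2 effect with 4OHT minus that without it was 0.43 ± 0.20 in PEO4 (adjusted p = 0.747) and 0.27 ± 0.20 in PEO1 (adjusted p = 0.879).

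The lines' BCL2A1 responses to 4OHT were compared directly. PEO4 minus PEO1 was -0.46 ± 0.21 (95% interval -0.88 to -0.05, adjusted p = 0.311), so a difference between the lines was not called. Since BCL2A1 is an immune cell gene, leukocyte markers were read beside it. Of the 7 measured of 8 listed, 0 were called in PEO1 with 4OHT over vehicle. Their summed log2 level was 40.4 to 41.4 on PEO1 4OHT arrays, against 40.2 to 41.0 on vehicle arrays. In PEO4 PTPRC was called higher with 4OHT, and the sums were 43.1 to 44.5, against 43.0 to 43.5. With 4OHT+E2, 0 of the 7 were called over E2 or over vehicle in either line. The part of these markers in the result was not tested.

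Gene patterns closest to that of BCL2A1 were ranked by Pearson's r over the 14 group means, after centring each line. RGS2, a regulator of G protein signalling, had the highest value (r = 0.98), followed by CREB5, a CREB family transcription factor, and ENTREP1 (both r = 0.97). These points share the same arrays, and the values are descriptive.

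Over the whole family, 3 of 23 probe sets were called with 4OHT over vehicle in PEO1, 2 higher and 1 lower, where 4.21% of all probe sets were called, 1.4% higher and 2.81% lower. They were BCL2A1, PMAIP1 and BAX. The members' median difference was -0.06 and that of all probe sets -0.03. In PEO4 2 of 23 were called, BCL2A1 higher and BCL2L1 lower, beside 3.93% of all probe sets (2.08% higher and 1.85% lower), with medians of 0.07 and 0.00. With 4OHT+E2 over E2, 5 of 23 were called in PEO1 (9.99% of all) and 2 of 23 in PEO4 (4.25% of all). With 4OHT+E2 over vehicle the counts were 2 in PEO1 (4.86% of all) and 1 in PEO4 (5.17% of all). Leaving out 1 array gave 1 to 6 in PEO1 (6 without 4OHT+E2 replicate C) and 1 to 2 in PEO4, and the shares of all probe sets in those fits are not given.

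**Figure D2:**
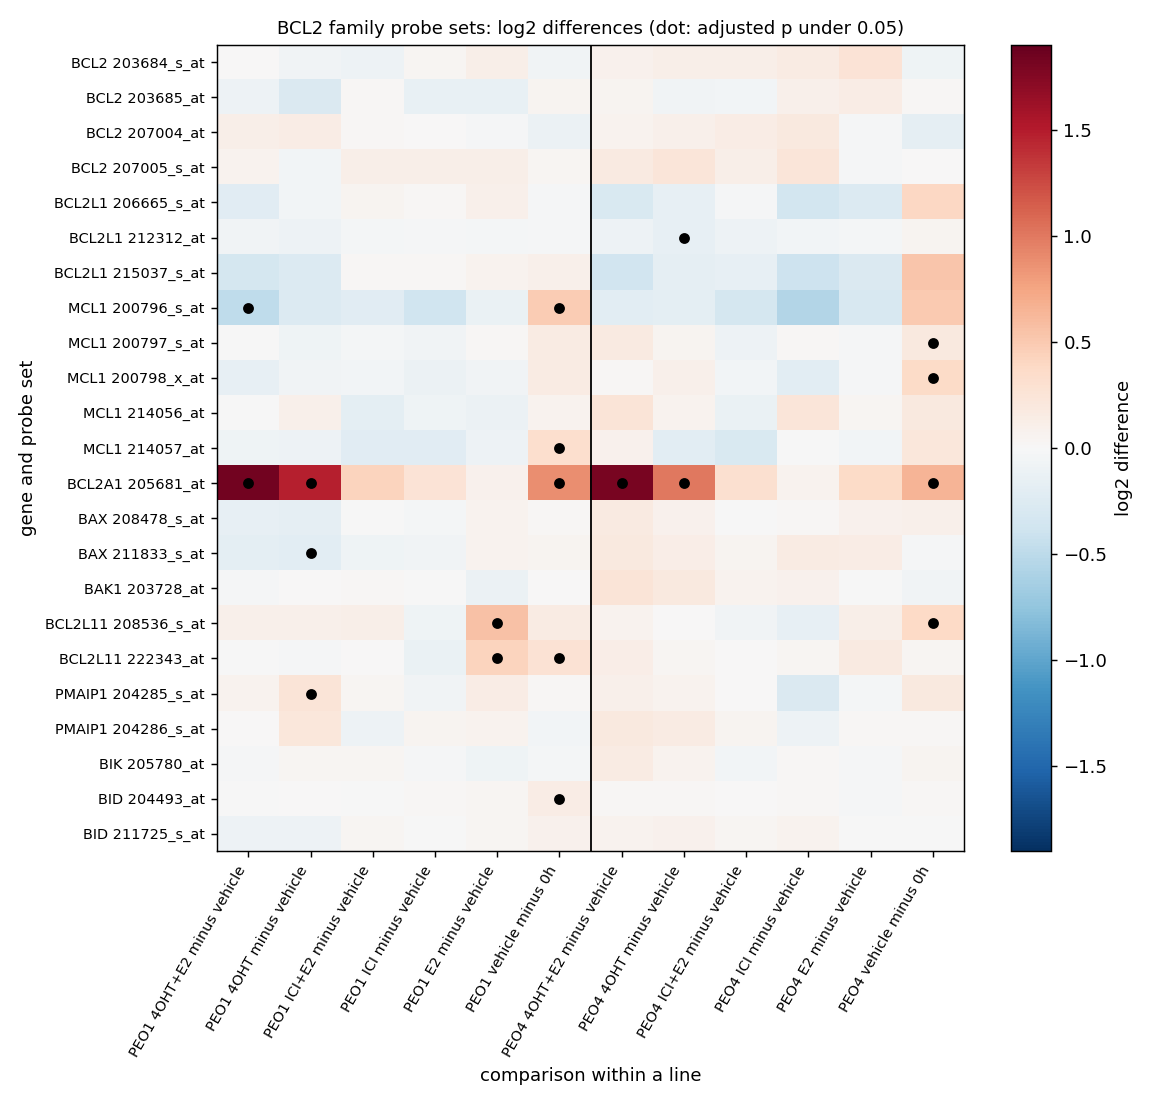
Log2 differences of all 23 member probe sets. Rows are probe sets, columns are comparisons within PEO1 (left of the line) and PEO4 (right of it), colour is the log2 difference and a dot marks an adjusted p under 0.05. BCL2A1 has the deepest colours, up to 1.83 in PEO1 and 1.80 in PEO4 with 4OHT+E2 over vehicle, and the ICI columns hold 0 dots.

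MCL1 (chromosome 1, 150574558 to 150579610), a short-lived survival protein, rose with vehicle over 0 h on 2 of its 5 probe sets in each line, and each comparison with an antagonist in which it was called had 1 probe set called. On its lead probe set 200798_x_at, the one with the highest mean, PEO4 vehicle arrays stood at 11.42, 11.53, 11.37 and 11.39, against 11.14, 10.97, 11.21 and 10.95 at 0 h. All vehicle arrays lay above all 0 h arrays. The difference was 0.36 ± 0.08 (1.29-fold, adjusted p = 0.00439), and probe set 200797_s_at gave 0.18 ± 0.05 (adjusted p = 0.0286). In PEO1 the lead probe set gave 0.16 ± 0.07 (adjusted p = 0.224), while 200796_s_at gave 0.48 ± 0.13 (adjusted p = 0.0301) and 214057_at 0.33 ± 0.09 (adjusted p = 0.0367). Which MCL1 probe sets passed thus differed between the lines. Each of these calls except that of the PEO4 lead probe set was lost in some runs that left out 1 array. The call of 214057_at was also lost with replicate labels fitted as a block. That of 200797_s_at was also lost with quantile normalization and with only the compared groups fitted. Over all settings the adjusted p reached 0.0993, 0.135 and 0.11 for 200796_s_at, 214057_at and 200797_s_at.

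4OHT did not move the MCL1 lead probe set past the threshold in either line. The 4OHT minus vehicle difference was -0.06 ± 0.07 in PEO1 (95% interval -0.21 to 0.08) and 0.09 ± 0.08 in PEO4 (-0.07 to 0.25). In PEO4 probe set 200797_s_at stood at 11.31, 11.32, 11.46 and 11.38 with 4OHT+E2, against 11.14, 11.17, 11.19 and 11.22 with E2 and 11.13, 11.04, 11.06 and 11.14 with ICI+E2. The 4OHT+E2 arrays were the highest of the 3 groups, by 0.18 ± 0.05 over E2 (adjusted p = 0.0324) and by 0.27 ± 0.05 over ICI+E2 (1.20-fold, adjusted p = 0.0014). The call over E2 was lost without E2 replicate 1, 2 or 3 or 4OHT+E2 replicate 3 or 4, with quantile normalization and with only the compared groups fitted (adjusted p of up to 0.135). In PEO1 probe set 200796_s_at fell with 4OHT+E2 over vehicle by 0.49 ± 0.13 (adjusted p = 0.0292), with arrays at 6.94, 7.26, 7.47 and 6.61 against 7.63, 7.43, 7.58 and 7.59. The call was lost without vehicle replicate A, C or D or 4OHT+E2 replicate A or D and with only the compared groups fitted (adjusted p of up to 0.161). Those groups overlapped at 1 array, and 0 of the other 4 MCL1 probe sets passed in that comparison. On the same probe set PEO4 ICI replicate 1 read 5.99, against 6.87 to 6.95 on the other ICI arrays, and its ACTB 3′ minus 5′ difference was 3.41.

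BCL2L1 (chromosome 20, 31664452 to 31723963) encodes BCL-XL, the survival protein best known for guarding epithelial cells and platelets, and fell slightly with 4OHT in PEO4. Its lead probe set 212312_at stood at 10.62, 10.62, 10.62 and 10.61 with 4OHT, against 10.72, 10.78, 10.75 and 10.82 with vehicle. The groups did not overlap. The difference was -0.15 ± 0.04 (0.901-fold, adjusted p = 0.0481), and the call was lost whichever of the 8 arrays was left out. PEO1 gave -0.10 ± 0.05 (adjusted p = 0.305), and the difference between the lines was -0.05 ± 0.06 (adjusted p = 0.783). Probe set 215037_s_at fell in PEO1 with 4OHT+E2, with arrays at 6.89, 6.76, 7.14 and 6.60, against 7.33, 7.19, 7.27 and 7.25 with E2 (-0.41 ± 0.11, adjusted p = 0.0208). The lead probe set gave -0.04 ± 0.05 there, so the BCL2L1 probe sets disagreed in size. That call was lost without E2 replicate A or C or 4OHT+E2 replicate B or D, and with only the compared groups fitted. In PEO4 the same probe set read 6.61 on 0 h replicate 4 and 6.90 on ICI replicate 1, the arrays with the highest ACTB 3′ minus 5′ differences.

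BCL2 itself (chromosome 18, 63123346 to 63320090), the founding survival gene and a known estrogen target in breast cancer cells, was called in 0 of 48 tests in each line over its 4 probe sets. Its differences from vehicle ran from -0.27 to 0.14 in PEO1 and from -0.07 to 0.27 in PEO4, with smallest adjusted p of 0.089 and 0.0927. The comparisons tested share arrays, and some had few calls anywhere. The share of all probe sets called in them ran from 0% to 9.99% in PEO1 and from 0% to 5.17% in PEO4. On the lead probe set 207004_at, arrays ranged over 7.17 to 7.59 in PEO1 and 7.27 to 7.86 in PEO4. The 3 other BCL2 probe sets lay among the dimmest 40 percent of probe sets in both lines.

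BAX (chromosome 19, 48954875 to 48961798), which forms pores in the outer mitochondrial membrane, fell slightly with 4OHT in PEO1. Probe set 211833_s_at stood at 9.09, 8.95, 9.11 and 9.11 with 4OHT, against 9.22, 9.22, 9.35 and 9.31 with vehicle. All 4OHT arrays were lower. The difference was -0.21 ± 0.06 (0.866-fold, adjusted p = 0.0412). The call was lost whichever array was left out, with quantile normalization and with only the compared groups fitted. Over all these settings the adjusted p reached 0.153. With 4OHT+E2 the arrays stood at 9.07, 8.94, 9.26 and 9.08, against 9.24, 9.32, 9.44 and 9.33 with E2 (-0.24 ± 0.06, adjusted p = 0.00801). One 4OHT+E2 array overlapped the E2 range, and the call was lost with only these groups fitted (adjusted p = 0.112). The second BAX probe set, 208478_s_at, gave -0.17 ± 0.07 (adjusted p = 0.174) and -0.21 ± 0.07 (adjusted p = 0.0527) in these comparisons. In PEO4 the 4OHT minus vehicle difference was 0.12 ± 0.08 (adjusted p = 0.514), and PEO4 minus PEO1 was 0.33 ± 0.10 (adjusted p = 0.123).

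BAK1 (chromosome 6, 33572552 to 33580276), the other effector, was called in 0 of 12 tests in each line. Its differences from vehicle ran from -0.11 to 0.02 in PEO1 and from -0.0046 to 0.24 in PEO4, with smallest adjusted p over all tests of 0.0871 and 0.0618. In the comparisons tested, 0% to 9.99% of all probe sets were called in PEO1 and 0% to 5.17% in PEO4.

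BCL2L11 (chromosome 2, 111120914 to 111168445), which encodes the BH3-only protein BIM, was the member that E2 raised, and it did so in PEO1 on both probe sets. On the lead probe set 222343_at, the E2 arrays stood at 7.95, 8.03, 8.01 and 7.96, against 7.52, 7.55, 7.61 and 7.60 with vehicle. On 208536_s_at they stood at 6.61, 6.83, 6.54 and 6.64, against 6.24, 5.92, 6.17 and 6.08. Every E2 array lay above every vehicle array on both. The differences were 0.42 ± 0.05 (1.33-fold, adjusted p = 6.38e-06) and 0.55 ± 0.10 (1.47-fold, adjusted p = 0.00182). These were the 2 of 23 member probe sets called with E2 in PEO1, where 1.5% of all were called.

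The E2 level of BCL2L11 was not reached when either antagonist was present. With 4OHT+E2 the lead probe set stood at 7.46, 7.51, 7.65 and 7.62 and with ICI+E2 at 7.65, 7.54, 7.62 and 7.52, all under the lowest E2 array (7.95). It fell by 0.43 ± 0.05 with 4OHT+E2 over E2 (adjusted p = 1.38e-06) and by 0.40 ± 0.05 with ICI+E2 over E2 (adjusted p = 6.73e-06). Probe set 208536_s_at fell by 0.46 ± 0.10 (adjusted p = 0.004) and by 0.44 ± 0.10 (adjusted p = 0.0128), the first with overlapping groups. The first call was lost with only the compared groups fitted (adjusted p = 0.0643), and the second without E2 replicate B or ICI+E2 replicate C (adjusted p of up to 0.0744). This probe set was among the dimmest 40 percent in both lines. With ICI+E2 over E2, these were the 2 of 23 member calls in PEO1 (1.88% of all), and 0 of 23 were called in PEO4 (1.44% of all), where 2 had an unadjusted p under 0.05.

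The E2 effect on the lead probe set was smaller in the presence of 4OHT than without it, by -0.40 ± 0.07 (adjusted p = 0.00359), in a direct test of the interaction, where 2 of 23 members were called (0.455% of all). With ICI the same test gave -0.27 ± 0.07 (adjusted p = 0.185), with 0 members called and 6 at an unadjusted p under 0.05 (0.257% of all called). On 208536_s_at the values were -0.55 ± 0.14 (adjusted p = 0.105) and -0.36 ± 0.14 (adjusted p = 0.83).

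**Figure D3:**
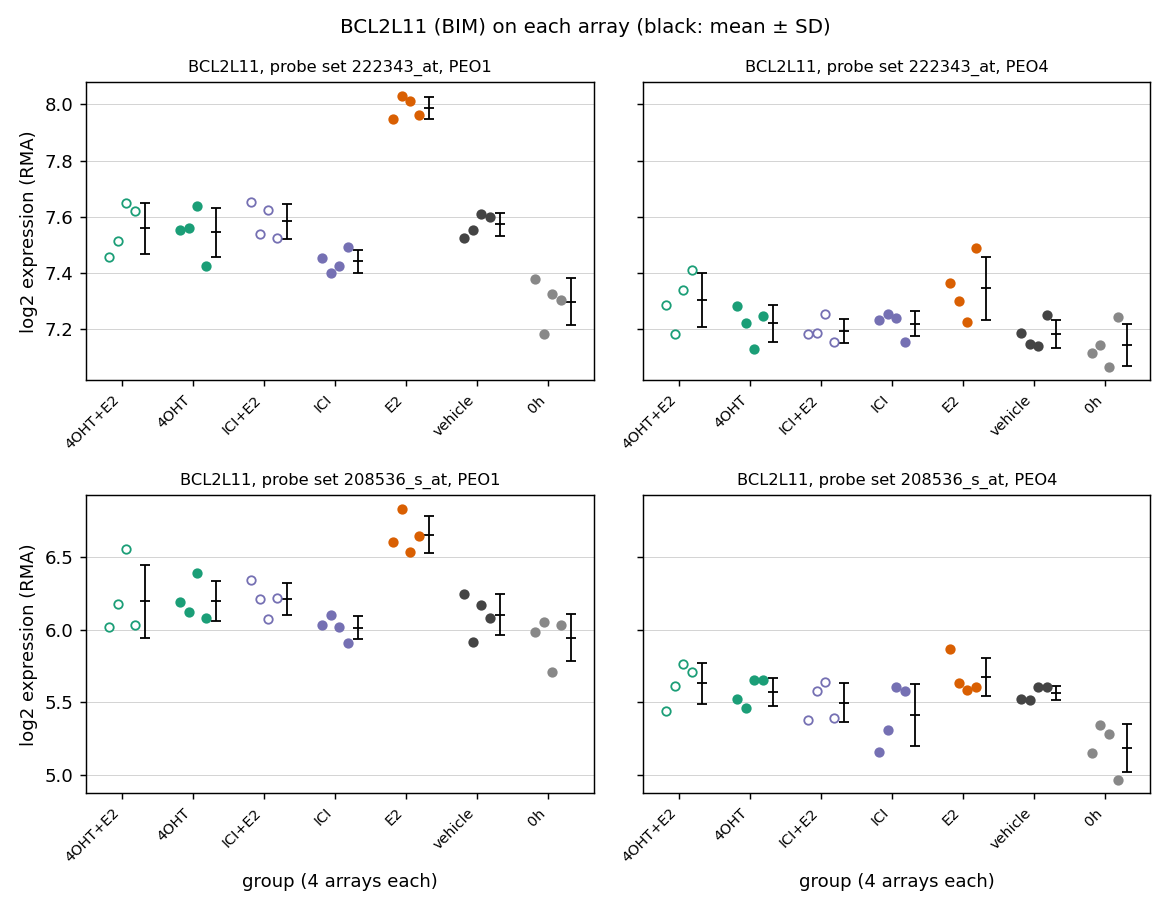
BCL2L11 on each array. The y axes are log2 RMA values of probe sets 222343_at (top) and 208536_s_at (bottom), the x axis the 7 groups of PEO1 (left) and PEO4 (right), points are arrays and black bars the mean ± SD (n = 4). The PEO1 E2 arrays stand apart from the other groups on the lead probe set, with a mean of 7.99 against 7.57 with vehicle. In PEO4 the means are 7.34 and 7.18 and the groups overlap.

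In PEO4 BCL2L11 stood at 7.36, 7.30, 7.22 and 7.49 with E2, against 7.18, 7.15, 7.14 and 7.25 with vehicle. The ranges overlapped, and the difference of 0.16 ± 0.06 (95% interval 0.05 to 0.28) had an adjusted p of 0.223. PEO4 minus PEO1 was -0.25 ± 0.07 on the lead probe set (adjusted p = 0.216) and -0.44 ± 0.14 on 208536_s_at (adjusted p = 0.333), so the E2 responses of the lines were not shown to differ. In PEO4 0 of 23 members were called with E2 over vehicle (1.44% of all), with 3 at an unadjusted p under 0.05. The PEO4 tests of the E2 effect with against without an antagonist also gave 0 member calls, where 0.387% of all probe sets were called with 4OHT and 0.617% with ICI, and 2 and 5 members had an unadjusted p under 0.05.

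Time with vehicle also raised BCL2L11, by 0.27 ± 0.05 on 222343_at in PEO1 (7.57 ± 0.04 with vehicle and 7.30 ± 0.08 at 0 h, adjusted p = 0.00123) and by 0.38 ± 0.10 on 208536_s_at in PEO4 (5.56 ± 0.05 and 5.19 ± 0.16, adjusted p = 0.0179). The other probe set of the pair gave 0.16 ± 0.10 (adjusted p = 0.455) in PEO1, and 0.04 ± 0.06 (adjusted p = 0.759) in PEO4. The PEO4 call was lost without 0 h replicate 1 or 4 or vehicle replicate 3. Patterns closest to that of BCL2L11 over the 14 group means were those of E2F6, a repressor of the E2F family, SCNN1B, an epithelial sodium channel subunit, and CHST10, a sulfotransferase (r = 0.95 for each).

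PMAIP1 (chromosome 18, 59899996 to 59904305), the gene of NOXA and a target of p53 and stress pathways, rose slightly with 4OHT in PEO1. Probe set 204285_s_at stood at 12.41, 12.39, 12.49 and 12.40 with 4OHT, against 12.12, 12.13, 12.22 and 12.25 with vehicle. Each 4OHT array lay above each vehicle array. The difference was 0.24 ± 0.05 (1.18-fold, adjusted p = 0.00263), with an adjusted p of 0.0508 when only these 2 groups were fitted. With E2 present no such difference was called. The 4OHT+E2 arrays stood at 12.18, 12.15, 12.33 and 12.33, against 12.30, 12.35, 12.31 and 12.30 with E2 (-0.07 ± 0.05, adjusted p = 0.389). The E2 effect with 4OHT minus that without it was -0.31 ± 0.07 (adjusted p = 0.0236). That call was lost in 6 of 16 fits that left out 1 array and with only the compared groups fitted (adjusted p of up to 0.127). The second probe set, 204286_s_at, gave 0.21 ± 0.09 with 4OHT over vehicle (adjusted p = 0.207). In PEO4 the 4OHT arrays lay at 12.84 to 12.86, against 12.70 to 12.84 with vehicle (0.07 ± 0.09, adjusted p = 0.771), and PEO4 minus PEO1 was -0.18 ± 0.10 (adjusted p = 0.441).

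**Figure D4:**
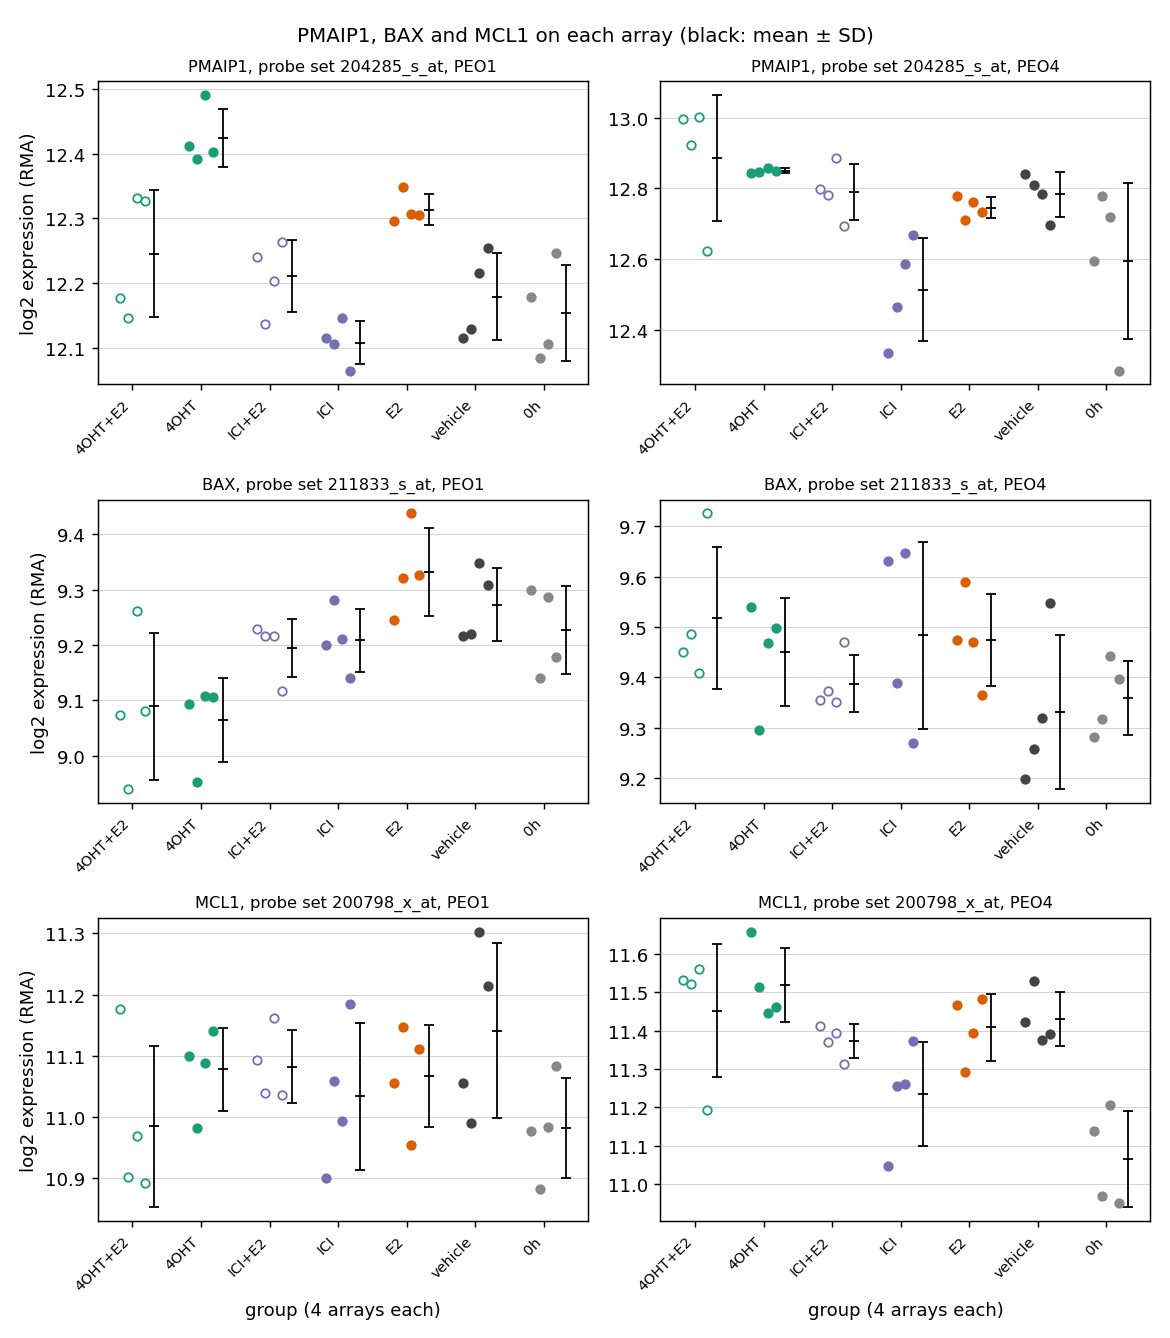
PMAIP1, BAX and MCL1 on each array. The y axes are log2 RMA values of their lead probe sets, each panel with its own range, the x axis the 7 groups of PEO1 (left) and PEO4 (right), points are arrays and black bars the mean ± SD (n = 4). In PEO1 the 4OHT arrays of PMAIP1 (12.39 to 12.49) lie above and those of BAX (8.95 to 9.11) below the vehicle arrays, and in PEO4 the vehicle arrays of MCL1 (11.37 to 11.53) lie above those at 0 h (10.95 to 11.21).

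BID (chromosome 22, 17734138 to 17774665), which links death receptors to mitochondria, was called once. Probe set 204493_at stood at 10.60, 10.67, 10.66 and 10.72 with vehicle in PEO1, against 10.49, 10.49, 10.54 and 10.56 at 0 h (0.14 ± 0.04, 1.10-fold, adjusted p = 0.039). This call was lost in 6 of the 8 fits that left out 1 array, with quantile normalization and with only the compared groups fitted. Differences of BID from vehicle were -0.09 to 0.04 in PEO1 cells and -0.02 to 0.09 in PEO4 cells. BIK (chromosome 22, 43110750 to 43129712), a BH3-only protein of the endoplasmic reticulum, was called in 0 of 12 tests per line, with differences from vehicle of -0.09 to 0.04 in PEO1 and -0.05 to 0.16 in PEO4. In the comparisons tested, 0% to 9.99% of all probe sets were called in PEO1 and 0% to 5.17% in PEO4.

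Over the 3 h with vehicle, the family's calls were all increases. In PEO1 5 of 23 probe sets were called, from BCL2A1, BCL2L11, MCL1 and BID, where 5.66% of all probe sets were called (4.38% higher). In PEO4 4 of 23 were called, from BCL2A1, BCL2L11 and MCL1, where 4.89% were called (3.01% higher). The members' median was 0.05 in both lines, and that of all probe sets 0.02 in PEO1 and -0.02 in PEO4. Of the differences between the lines in this change, 0 of 23 passed (1.46% of all), with 2 at an unadjusted p under 0.05.

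ICI alone gave 0 member calls in either line (0.0585% of all probe sets in PEO1 and 0.0765% in PEO4), with limma's unadjusted p under 0.05 for 3 and 6 members. ICI+E2 over vehicle also gave 0 in both lines (0.0225% and 0.0045% of all), with 3 members at an unadjusted p under 0.05 in each. ICI+E2 over ICI gave 0 calls in both (0% of all probe sets in each), with 2 and 4 members at an unadjusted p under 0.05, and with array weights 3 in PEO4. In PEO4 1 ICI array had the ACTB 3′ minus 5′ difference of 3.41 given above. Array weights, set by each array's spread around the fitted group means and not by RNA quality, gave 7 member calls for ICI over vehicle in PEO4. Leaving out ICI replicate 4 gave 3, so that count depends on the arrays used. The shares of all probe sets called in those fits are not given, so these counts are not read as a family response.

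4OHT and ICI were compared directly at the same 1 µM dose and 3 h, in 4 comparisons: with and without E2, in each line. 4OHT is a triphenylethylene and ICI a steroid with a long side chain, and both bind the estrogen receptor. BCL2A1 differed in all 4 comparisons. In PEO1 it was higher with 4OHT than with ICI by 1.21 (95% interval 0.92 to 1.51, adjusted p = 9.9e-06) and with 4OHT+E2 than with ICI+E2 by 1.41 (1.11 to 1.70, adjusted p = 3.02e-06). In PEO4 the differences were 0.94 (0.65 to 1.23, adjusted p = 0.000192) and 1.50 (1.21 to 1.79, adjusted p = 7.72e-08). Of the 7 leukocyte markers, CD14 was called higher in this last comparison, where the summed levels were 43.4 to 43.8 with 4OHT+E2 and 43.3 to 43.4 with ICI+E2, and their part in the result was not tested.

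PMAIP1 was higher with 4OHT than with ICI in PEO1, where arrays stood at 12.39 to 12.49 with 4OHT and 12.07 to 12.15 with ICI (0.32, 95% interval 0.22 to 0.41, adjusted p = 0.000196). In PEO4 the 4OHT arrays lay at 12.84 to 12.86 and the ICI arrays at 12.34, 12.47, 12.59 and 12.67 (0.34, 0.16 to 0.51, adjusted p = 0.0429). The call was lost in 7 of the 8 fits that left out 1 array and with only the compared groups fitted. The ICI array at 12.34 was replicate 1, with an ACTB 3′ minus 5′ difference of 3.41. PMAIP1 was also lowest in its group on 0 h replicate 4 (12.28, against 12.59 to 12.78) and on 4OHT+E2 replicate 4 (12.62, against 12.92 to 13.00). Those arrays had ACTB differences of 2.28 and 1.74, and the part of RNA quality in the result was not tested. With E2 present the PMAIP1 differences were 0.03 (-0.06 to 0.13) and 0.10 (-0.08 to 0.27). On lead probe sets, the compounds were not shown to differ for BCL2, BCL2L1, MCL1, BAX, BAK1, BCL2L11, BIK or BID. The 95% intervals without E2 in PEO4 were 0.13 to 0.45 for MCL1 (adjusted p = 0.0622), -0.21 to 0.14 for BAX and -0.25 to 0.07 for BCL2. For BCL2L11 they were -0.0013 to 0.21 in PEO1 and -0.11 to 0.12 in PEO4. MCL1 too was lowest among the PEO4 ICI arrays on replicate 1 (11.05, against 11.26 to 11.37), and the part of RNA quality was not tested there either. With E2 in both groups, BIK in PEO4 had 0.08 to 0.34 (adjusted p = 0.0788) and BID in PEO1 -0.22 to -0.04 (adjusted p = 0.108). In all, 2 of 23 members were called in PEO1 (2.39% of all) and 2 in PEO4 (1.56%) without E2, and 1 in PEO1 (2.71%) and 2 in PEO4 (3.21%) with E2. 4OHT+E2 over 4OHT gave 0 in PEO1 (0% of all), with 3 at an unadjusted p under 0.05, and 1 in PEO4 (0.0675% of all).

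**Figure D5:**
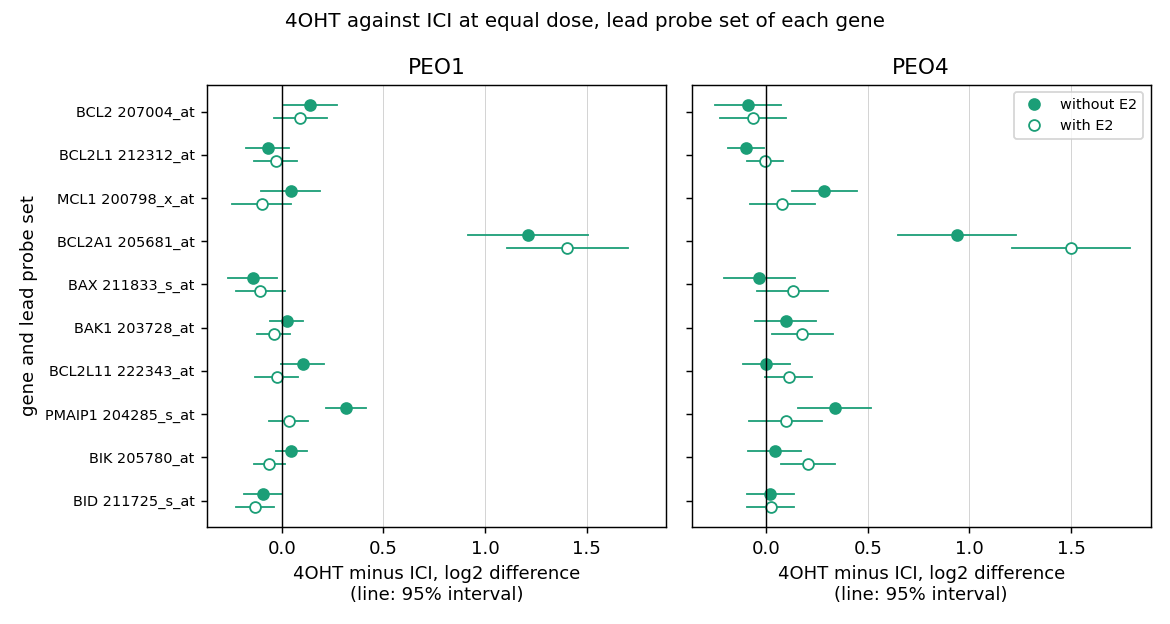
4OHT minus ICI for the lead probe set of each member. The x axis is the log2 difference, lines are 95% intervals, filled points are without E2 and open points with E2 in both groups, and panels are PEO1 (left) and PEO4 (right). BCL2A1 lies farthest from 0, between 0.94 and 1.50, and PMAIP1 without E2 at 0.32 and 0.34.

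Differences between the lines were tested for 4OHT, E2 and ICI over vehicle, and 0 of 23 members passed in each (0.783%, 0.32% and 0.063% of all probe sets). At an unadjusted p under 0.05 there were 5, 2 and 2 members.

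The genes that act with the family were read from 4 lists, on 1 probe set per gene. With 4OHT over vehicle, 4.21% of all probe sets were called in PEO1 and 3.93% in PEO4. Of the 9 measured of 12 other BCL2 family genes, 0 were called with 4OHT over vehicle in either line, with medians of -0.05 in PEO1 and 0.04 in PEO4. Of 9 measured caspase and apoptosome genes, 0 were called in PEO1 and 1, CASP9, in PEO4. CASP9, the initiator caspase that cytochrome c release activates, had 0.40 ± 0.11 with 4OHT over vehicle (adjusted p = 0.0406) and 0.85 ± 0.11 with 4OHT+E2 over vehicle (adjusted p = 8.39e-06) in PEO4. In PEO1 the values were 0.18 ± 0.06 (adjusted p = 0.0967) and 0.33 ± 0.06 (adjusted p = 0.00167). A direct test of PEO4 minus PEO1 for 4OHT over vehicle called 0 of the 9 caspase and apoptosome genes (0.783% of all probe sets).

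Of 6 measured death receptor genes, 1 was called with 4OHT over vehicle in each line (4.21% of all probe sets in PEO1 and 3.93% in PEO4), and it was TNFRSF10B in both. This gene, which encodes the TRAIL receptor DR5, rose by 0.38 ± 0.06 in PEO1 (adjusted p = 0.00012) and by 0.40 ± 0.08 in PEO4 (adjusted p = 0.00246). With E2 over vehicle it rose in PEO4 by 0.36 ± 0.08 (adjusted p = 0.0107), while 0 of 6 were called in PEO1. The shares of all probe sets called there were 1.44% in PEO4 and 1.5% in PEO1. In the direct test of PEO4 minus PEO1 for E2 over vehicle, 0 of the 6 genes were called (0.32% of all probe sets). A line difference was thus not shown. Of 4 measured caspase inhibitors, BIRC5, the survivin gene, fell in PEO1 with 4OHT by 0.22 ± 0.05 (adjusted p = 0.0199), and 0 were called in PEO4. The direct test of PEO4 minus PEO1 for 4OHT over vehicle called 0 of the 4 (0.783% of all probe sets). TNFSF10, the gene of TRAIL, fell with vehicle over 0 h by 0.57 ± 0.10 in PEO1 and by 0.41 ± 0.10 in PEO4 (adjusted p = 0.000687 and 0.0114). In PEO1 TNFSF10 also fell with 4OHT+E2, by 0.55 ± 0.10 over E2 (adjusted p = 0.000533) and by 0.33 ± 0.10 over vehicle (adjusted p = 0.0493). TNFRSF10B also rose in PEO1 with vehicle over 0 h, by 0.22 ± 0.06 (adjusted p = 0.0143).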

How the data were processed

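The deposited table holds log2 expression values per probe set from Affymetrix arrays, made by the authors with RMA per the submitters' processing notes. The RMA version is not given in the sources used here. Of 22277 probe sets, 62 controls were left out, and 22215 were tested. Symbols came from the array's annotation: 19064 probe sets had 1 symbol, 1043 several and 2108 none. Groups were taken from the sample labels. limma 3.58.1 in R 4.3.3 fitted 7 group means per line over 28 arrays (21 residual degrees of freedom), with Benjamini-Hochberg adjustment over all probe sets within each comparison. Differences between lines were fitted over all 56 arrays. There were 18 comparisons within lines and 4 between them, and 6 pairwise comparisons and 4 tests of E2 with an antagonist were added after the data were seen. The script was tested on simulated data. The number of arrays limits the precision, and no counts or depths apply.

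The members and lists were chosen with earlier results of these data known. All 23 member probe sets are accounted for. Values per array are given for the lead probe set (highest mean over the 56 arrays) of members called against vehicle and for other probe sets of the gene called with a larger change, and those of MCL1 and BID were added after their values were seen. Up to 4 genes per pathway list were eligible by smallest adjusted p. Pairing by replicate label was not part of the main fits. Deviations of same-labelled arrays had a mean correlation of 0.014 in PEO1 (-0.38 to 0.32) and 0.063 in PEO4 (-0.57 to 0.53). For differently labelled arrays of different groups the means were -0.0049 and -0.018. A mean near 0 with so wide a range does not exclude pairing.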

Additional observations from a re-analysis of the deposited data

Results flagged for a closer look

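Among 112 groups of 4 arrays, from 8 probe sets, 8 had an array whose gap to the nearest other array, divided by the group's range, exceeded Dixon's 95% critical value. Chance marks about 1 group in 20. The values are given as measured.

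BCL2A1 read 7.41 on PEO4 4OHT+E2 replicate 4, against 7.72 to 7.78 on the other arrays of the group, and MCL1 (200798_x_at) read 11.19 on the same array, against 11.52 to 11.56. That array had an ACTB 3′ minus 5′ difference of 1.74. MCL1 (200796_s_at) read 5.99 on PEO4 ICI replicate 1, against 6.87 to 6.95, and 7.66 on PEO4 vehicle replicate 2, against 7.07 to 7.16. BAX (211833_s_at) read 8.95 on PEO1 4OHT replicate B, against 9.09 to 9.11, and 9.12 on PEO1 ICI+E2 replicate D, against 9.22 to 9.23. BCL2L1 (212312_at) read 10.79 on PEO4 ICI replicate 2, against 10.68 to 10.69, and 10.61 on PEO4 4OHT replicate 4, where the others all read 10.62.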

How the results depend on the processing

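Of 577 repeated tests of 38 member differences, 485 kept their call, 92 lost it and 0 changed sign. Of 375 repeated member counts, 311 stayed within 1.5 times the reported count and 64 did not, and the cause was not tested. The shares of all probe sets called in these repeats are not given. The counts below thus show only how far the calls depend on the settings. With dim probe sets left out, which keeps 19 members in PEO1 and 16 in PEO4, the counts were 1 for PEO1 E2 over vehicle, 2 for PEO1 4OHT+E2 over ICI+E2, 1 for PEO4 4OHT over vehicle, 2 for PEO4 vehicle over 0 h and 0 for PEO4 4OHT+E2 over 4OHT. The last 3 lost BCL2A1 by construction in PEO4. With 1 probe set per gene, they were 1 for E2 over vehicle, 2 for vehicle over 0 h and 1 for ICI+E2 over E2 in PEO1, and 2 for vehicle over 0 h and 1 for 4OHT+E2 over ICI+E2 in PEO4. With array weights, PEO1 4OHT+E2 over ICI+E2 gave 2. In PEO4 that setting gave 4 for 4OHT over vehicle, 2 for E2 over vehicle, 7 for ICI over vehicle, 7 for vehicle over 0 h, 4 for 4OHT+E2 over E2, 1 for ICI+E2 over E2, 4 for 4OHT over ICI and 5 for 4OHT+E2 over ICI+E2, and 1 for the line difference of ICI. With only the compared groups fitted, the counts were 1 for 4OHT over vehicle and 2 for 4OHT+E2 over E2 in PEO1, and 1 for 4OHT+E2 over E2, 1 for 4OHT over ICI and 0 for 4OHT+E2 over 4OHT in PEO4. Without PEO4 0 h replicate 4 and ICI replicate 1, PEO4 4OHT+E2 over ICI+E2 gave 5.

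Leaving out 1 array at a time gave, in PEO1, 2 for 4OHT over vehicle in each run, 2 to 5 for vehicle over 0 h, 4 to 10 for 4OHT+E2 over E2 (10 without 4OHT+E2 replicate C), 1 to 3 for ICI+E2 over E2 and 1 to 4 for 4OHT+E2 over ICI+E2 (4 without 4OHT+E2 replicate C). In PEO4 it gave 1 for 4OHT over vehicle in each run, 0 to 1 for E2 over vehicle, 0 to 3 for ICI over vehicle, 2 to 4 for vehicle over 0 h, 1 to 2 for 4OHT+E2 over E2, 1 to 4 for 4OHT over ICI (4 without ICI replicate 4), 2 to 3 for 4OHT+E2 over ICI+E2 and 0 to 1 for 4OHT+E2 over 4OHT. With the replicate block, PEO1 vehicle over 0 h gave 4 and 4OHT+E2 over E2 gave 6, and the other planned counts were as reported, for example 3 for PEO1 4OHT over vehicle. Of the comparisons added later, 4OHT+E2 over vehicle gave 1 to 6 in PEO1 and 1 to 4 in PEO4 over all settings. The PEO1 test of E2 with 4OHT gave 1 to 3. With array weights PEO4 ICI+E2 over ICI gave 3 and the PEO4 test of E2 with ICI gave 1. Signal over background was not available for these values.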

Other observations

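Genes of the pathway lists showed further values not given above. In PEO1, 9.99% of all probe sets were called with 4OHT+E2 over E2. There CASP9 rose by 0.45 (adjusted p = 1.69e-05) and TNFRSF10B by 0.31 (adjusted p = 0.000479). CFLAR, an inhibitor of caspase-8 activation, rose by 0.19 (adjusted p = 0.01), and BIRC5 fell by 0.18 (adjusted p = 0.0325). In PEO4, CASP8, the initiator caspase of death receptors, fell with vehicle over 0 h by 0.37 (adjusted p = 0.0126, 4.89% of all probe sets called). HRK, a BH3-only gene, rose in PEO4 with 4OHT+E2 over E2 by 0.30 (adjusted p = 0.00274, 4.25% of all probe sets called).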
